A study of Bos taurus with 64 samples.

Results

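The growth signalling genes of insulin, the insulin-like growth factors (IGF), transforming growth factor beta (TGF-beta), the bone morphogenetic proteins (BMP), activin, follistatin and the fibroblast growth factors (FGF) were followed in 2 muscles of cattle. The members were the genes whose name on the array begins with the family names of these ligands, receptors, binding proteins and SMAD proteins, with myostatin left out. They numbered 61 genes, read by 65 probes, of 5449 transcript names and 13285 probes on the array. Expression was measured in the LT (longissimus thoracis), which supports the trunk, and in the ST (semitendinosus), which moves the hind limb, of 32 Normand cows, with 1 array per cow and muscle and 64 arrays in all. The cows were slaughtered at a mean age of 4.5 years and a mean live weight of 768.7 kg, and the muscles were sampled within 15 min and then frozen. Stress before slaughter, moderated stress in the labels, had been given to 16 of these cows, and the other 16 were handled with limited stress. The stressed cows had travelled alone in a lorry and had spent 30 min in a labyrinth on an unknown farm. Every cow, whatever its group, had finished for 101 days on straw and concentrate with 40 g of lipids per kg of dry matter from linseed and rapeseed. In each stress group, 8 cows received this ration alone (control diet, Lipid-rich in the labels) and 8 received it with vitamin E and plant extracts rich in polyphenols (EP diet, Lipid VitE PERP in the labels). The stressed group differed in transport, company and handling together, and these cannot be told apart.

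Insulin and the IGFs act through receptor tyrosine kinases and the phosphatidylinositol 3-kinase (PI3K) and AKT pathway, which raises protein synthesis in muscle and holds the FOXO factors of protein breakdown outside the nucleus. Ligands of the TGF-beta superfamily bind pairs of type I and type II receptors, and these activate SMAD2 and SMAD3 on the TGF-beta and activin branch or SMAD1, SMAD5 and SMAD9 on the BMP branch, each joined by SMAD4. In adult muscle the activin branch is known to restrain growth and the BMP branch to favour it, while FGFs act on the muscle precursor cells.

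The 60-base probes behind the results were those of SMAD9, BMP4, GHR, INHA and TGFB3. A stretch of 30 bases of each probe is shown, 5′ to 3′ as the array files give it, because 1 or 2 such probes carry the whole reading of a gene. The coordinates are those of the files, on the bovine build Btau_3.1. Capitals mark the bases that an unnamed custom probe of the same array also holds, so that the gene was read a second time over the same part of its transcript.
SMAD9, bases 1 to 30 of its probe, chr12:24492285-24492314, plus strand: agcttccgtctgccgtgtcacataaggcat
BMP4, bases 1 to 30, chr10:68222551-68222580, minus strand: caaggtggttctgaaaaattatcaggagat
GHR, bases 20 to 49, chr20:33896813-33896842, minus strand: AAATCATGCCATAGCttttctttgatttcc
INHA, bases 6 to 35, chr2:111906492-111906521, plus strand: cccaaccttctcaccCAGCACTGTGCTTGC
TGFB3, first probe, bases 1 to 30, chr10:89828836-89828865, minus strand: aggacccccaaagtggagcagctgtctaac
TGFB3, second probe, bases 1 to 30, chr10:89827758-89827787, minus strand: tttttgGGGAATCTTGGATCGTTTCATCTT
The stretches of SMAD9, BMP4 and the first TGFB3 probe have no capitals, since no custom probe tied to these genes held their bases. No annotation of this build was used, so whether a probe lies in coding sequence or in an untranslated region is not given here.

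A level below is the log2 of a spot's signal over the 75th percentile of its array, so that a value of -5 stands for a signal 5 doublings under that percentile. The 75th percentile ranged from 2470 to 4202 units over the arrays, and 71.4% to 80.9% of the probes of an array were well above background. All 8 muscle identity markers of the array passed the filter on dim probes described next in both muscles, and 7 were called lower and 1 higher in the LT. The fast fibre markers were lower in the LT for 6 of 6 tested genes (median log2 fold change -0.17). The slow fibre markers were higher in the LT for 6 of 8 and lower for 1. Over all transcripts, 21.9% were higher and 29.9% lower in the LT. Scaling by the control features of the array moved the median of all transcripts from -0.03 to 0.15. These marker counts are for scaling by the 75th percentile alone. No marker tested of fat cells (4 genes), fibroblasts (5), endothelium (3) or immune cells (1) was called for stress in either muscle. Nor was a tested marker of nerve sheath or satellite cells. The 1 tested blood marker was not called in the LT, and blood markers were not tested in the ST. Over all transcripts, stress called 3.73% in the LT and 3.6% in the ST. Lists this short cannot show whether the share of a cell type changed. Of the 61 members, 44 exceeded the background clearly on 11 or more of the 32 LT arrays and were tested there, and 45 passed in the ST, where IGFBP2 was added. A group of 16 members was tested in neither muscle, among them FGF2, the type I receptor TGFBR1, IGFBP1 and the growth hormone releasing hormone GHRH. GHRH was not dim in every cow. It was well above background on 9 of 32 LT arrays and 8 of 32 ST arrays, with levels up to 1.005 and -4.715. The levels of 36 members were well above background on all 64 arrays. IGF1, INSR, IRS1, IRS2, AKT1, AKT2, FOXO1, FOXO3, MTOR, DDIT4, SMAD6 and SMAD7 had no probe under those names among the members and were not analysed here. In muscle tissue, fewer cells of a type and less RNA per cell cannot be told apart.

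Of the members tested, stress changed 1, in the ST. The call of a gene required an adjusted p under 0.1 in limma's moderated test, with 1 direction, for 80% or more of its probes. In the LT, 0 of 44 members were called, where 3.73% of all 4311 tested transcripts were (2.2% higher and 1.53% lower in stressed cows), and 3 members (6.82%) had an unadjusted p under 0.05, as had 13.6% of all transcripts. In the ST, 1 of 45 members was called, which is 2.22% against 3.6% of all 4246 transcripts (1.48% higher and 2.12% lower). That gene was SMAD9, and it fell. At an unadjusted p under 0.05 there were 9 members (20%) in the ST, beside 12.9% of all transcripts. The median log2 fold change of the members was 0.00 in the LT and -0.11 in the ST, beside medians of -0.05 and -0.06 over all transcripts. In the ST, 38 of 45 members (84.4%) had a negative log2 fold change, as had 69.8% of all transcripts. In the LT, 22 members were on each side of 0. These shares moved with the scaling. Scaled by the control features, 25 of 45 members were negative in the ST and 41 of 44 in the LT, while the median of all transcripts moved to 0.03 in the ST and to -0.23 in the LT, and the transcripts called in the ST were 33 higher and 5 lower, against 63 higher and 90 lower. SMAD9 was still the 1 member called in the ST, and it was lower there.

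**Figure D1:**
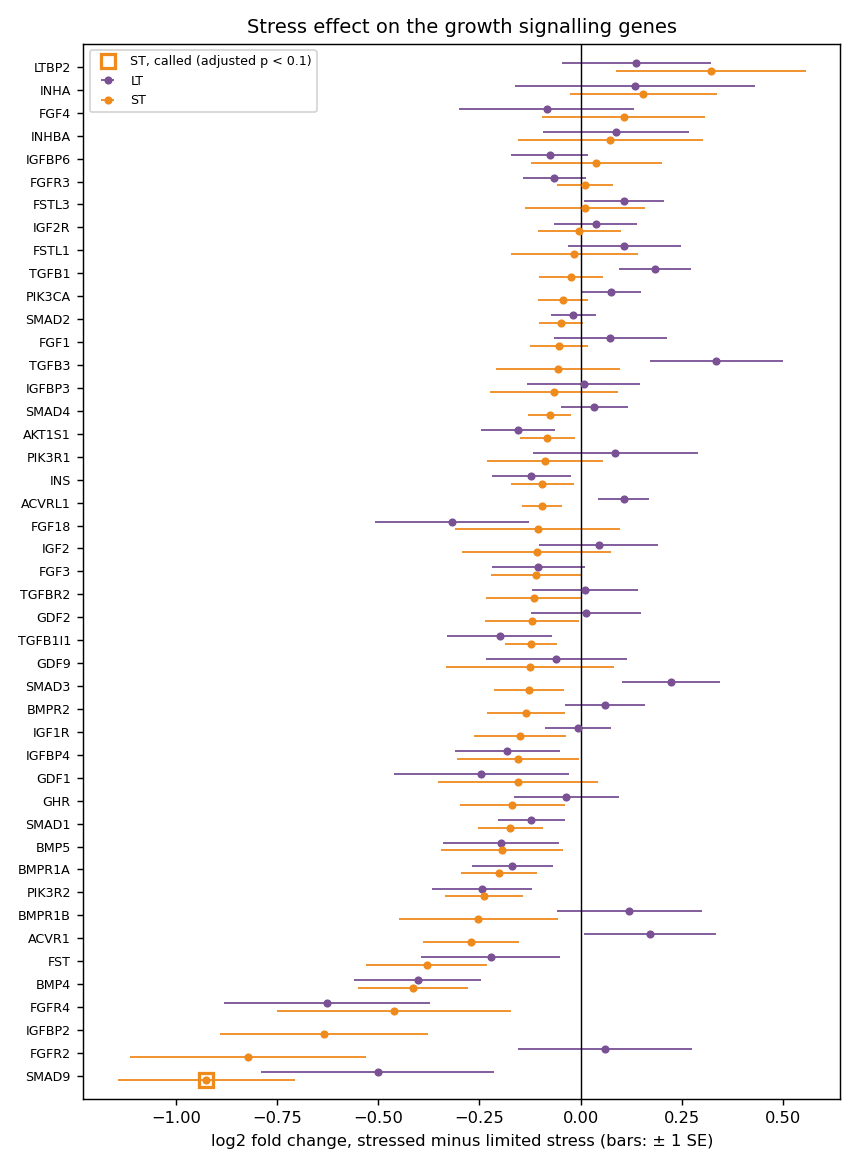
Log2 fold change of stressed against limited stress cows (x axis) for the members tested in the LT (purple) or the ST (orange), 16 arrays per group and muscle, with bars of 1 SE. SMAD9 in the ST, at -0.93, carries the only call (square), and BMP4 lies near -0.4 in both muscles.

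SMAD9, one of the receptor-activated SMAD proteins of the BMP branch, was lower in the ST of stressed cows. Its level in the ST ranged from -5.38 to -3.56, with a median of -4.48, in cows of limited stress and from -7.13 to -4.14, with a median of -5.52, in stressed cows. The groups overlapped, but 10 of the 16 stressed cows lay below every cow of limited stress, and 2 exceeded the median of that group. The log2 fold change was -0.93 (SE 0.22, n = 16 and 16, limma adjusted p = 0.0145), so that the signal in stressed cows was 52.7% of that in limited stress. The call held with each of the 32 cows left out in turn, with log2 fold changes from -1.04 to -0.82. The difference was negative on each of the 5 slides of the ST, from -1.51 to -0.03, and was -1.12 with slide as a block (limma adjusted p = 0.0246). Stress was spread unevenly over these slides. The slide with -1.35 held 6 stressed cows and 1 of limited stress. The slide with -0.89 held 1 and 3, and the slide with -0.03 held 2 and 6, in the same order. On the control diet the mean level was -4.58 ± 0.46 in limited stress and -5.69 ± 0.90 in stressed cows (SD, n = 8). On the EP diet it was -4.46 ± 0.54 and -5.20 ± 0.57 (SD, n = 8). The difference was thus in the same direction on both diets, and the interaction of stress and diet was not called (0.38, SE 0.44, adjusted p = 0.972). With normexp background correction, which added an offset of 50 units to every signal, the log2 fold change in the ST was -0.36 (adjusted p = 0.0633). Beside this result, the 4 tested markers of fat cells, ADIPOQ, CIDEA, FABP4 and PLIN, had a median log2 fold change of -0.61 in the ST with 0 of 4 called, and the sum over all 5 fat markers of the array, in units of the 75th percentile, had a median of 1.3 (0.335 to 5.44) in stressed ST and of 1.2 (0.61 to 7.71) in limited stress ST. The 75th percentile itself had a median of 3423 units in stressed ST and 2883 in limited stress ST. The part of either in the result was not tested.

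In the LT the SMAD9 probe was dim. It was well above background on 13 of 16 arrays of limited stress and on 11 of 16 arrays of stressed cows. The level ranged from -8.10 to -5.30 (median -6.84) in limited stress and from -8.80 to -6.03 (median -7.05) in stressed cows. The groups overlapped over most of their range, and the log2 fold change was -0.50 (SE 0.29, adjusted p = 0.397). The stress effects of the muscles were not shown to differ. The interaction of muscle and stress for SMAD9 was 0.42 (SE 0.37, limma adjusted p = 0.999) in a fit that did not pair the muscles of a cow. It was not called with cow as a replicate block either.

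BMP4, a ligand of the BMP branch, was close to the threshold in both muscles without passing it. In the LT its level ranged from -5.39 to -4.54 (median -5.00) in limited stress and from -6.18 to -3.54 (median -5.43) in stressed cows. In the ST it ranged from -5.14 to -4.37 (median -4.88) in limited stress and from -6.43 to -4.63 (median -5.17) in stressed cows. In each muscle 8 of 16 stressed cows lay below every cow of limited stress. BMP4 thus had a log2 fold change in the LT of -0.40 (SE 0.16, limma adjusted p = 0.182). In the ST it had -0.41 (SE 0.14, limma adjusted p = 0.109). In the LT 1 array decided the call. The highest level of the LT, -3.54, belonged to stressed cow258, whose ST level was -5.61. Without this cow the log2 fold change of BMP4 in the LT was -0.52 with an adjusted p of 0.00331, and it was not called with any other cow left out. In the ST the adjusted p ranged from 0.061 to 0.18 with each cow left out, and BMP4 was called in 6 of the 32 fits, those without cow259, cow260, cow265, cow268, cow287 or cow330. With the 75th percentile taken without outlying spots, an alternative added after seeing the data, BMP4 was also called in the ST (-0.43, adjusted p = 0.0841). Within slides the difference was negative on 5 of 5 slides in the ST and on 3 of 4 in the LT, and the slide with a positive value, 0.11, held the array of cow258. In the ST, the slide with -0.38 held 1 cow of limited stress, and the slide with -0.23 held 1 stressed cow.

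**Figure D2:**
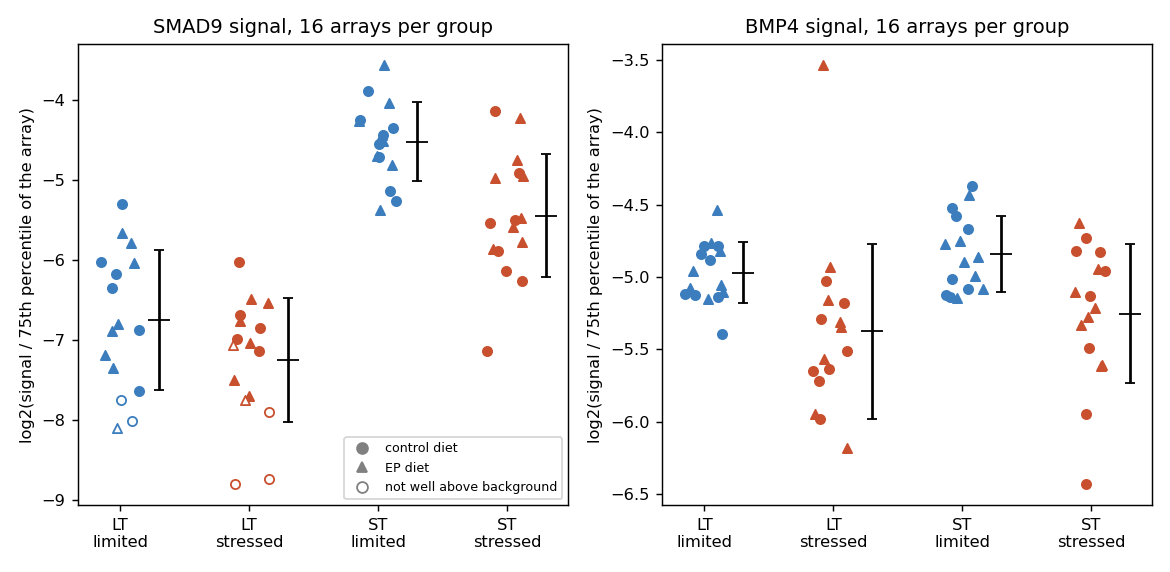
Level of SMAD9 (left) and BMP4 (right) on each array (y axis, log2 of signal over the 75th percentile of the array) by muscle and stress group, 16 arrays each, with circles for the control diet, triangles for the EP diet, open symbols for spots not well above background, and black bars for the mean ± 1 SD. Blue marks limited stress and red stressed cows. SMAD9 in the ST of stressed cows lies mostly under the range of limited stress, and 1 BMP4 value of a stressed LT, at -3.54, stands above the others.

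The other genes of the BMP branch were not called for stress. BMP5, a further BMP ligand, had a log2 fold change of -0.20 (SE 0.14) in the LT and -0.19 (SE 0.15) in the ST. Among receptors, the type I receptor BMPR1A had -0.17 (SE 0.10) and -0.20 (SE 0.09, adjusted p = 0.261), the type II receptor BMPR2 had 0.06 (SE 0.10) and -0.13 (SE 0.10), and the type I receptor ACVR1 had 0.17 (SE 0.16) and -0.27 (SE 0.12, adjusted p = 0.229), each in the LT and the ST in that order. SMAD1, the sister of SMAD9 on this branch, had -0.12 in the LT (SE 0.08) against -0.17 in the ST (SE 0.08, adjusted p = 0.254).

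On the TGF-beta and activin branch no member was called for stress. The ligand TGFB1 gave 0.18 in the LT (SE 0.09, adjusted p = 0.309) against -0.02 in the ST (SE 0.08), and TGFB3 had 0.34 (SE 0.16, adjusted p = 0.358) and -0.06 (SE 0.15). The receptor TGFBR2 had 0.01 (SE 0.13) in the LT and -0.12 (SE 0.12) in the ST. SMAD2 had -0.02 (SE 0.06) and -0.05 (SE 0.05), and SMAD4, the common partner of both branches, had 0.03 (SE 0.08) and -0.08 (SE 0.05). SMAD3 had 0.22 in the LT (SE 0.12, adjusted p = 0.368) against -0.13 in the ST (SE 0.09). INHBA, the subunit of activin A, had 0.09 (SE 0.18) and 0.07 (SE 0.23). Follistatin, the secreted inhibitor of activins and myostatin encoded by FST, was nearer the threshold. Its level in the ST ranged from -3.39 to -1.83 (median -2.70) in limited stress and from -3.70 to -2.04 (median -3.10) in stressed cows, and the median of limited stress was exceeded by 3 of 16 stressed cows. For FST the log2 fold change was -0.38 (SE 0.15, adjusted p = 0.184) in the ST, against -0.22 (SE 0.17) in the LT. The 5 custom probes of follistatin gave -0.38 (mean SE 0.15, highest adjusted p = 0.201) in the ST.

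In the insulin and IGF branch no member that passed the filter on dim probes was called for stress, and most values were small. The growth hormone receptor GHR had a log2 fold change of -0.03 in the LT (SE 0.13) against -0.17 in the ST (SE 0.13, adjusted p = 0.517). The receptor IGF1R had -0.01 (SE 0.08) and -0.15 (SE 0.11), IGF2 had 0.05 (SE 0.15) and -0.11 (SE 0.18), and IGF2R, which takes up and degrades IGF2, had 0.04 (SE 0.10) and 0.00 (SE 0.10). The binding proteins IGFBP3, IGFBP4 and IGFBP6 lay between -0.18 and 0.04 in the LT and the ST. Of the PI3K subunits, the catalytic PIK3CA had 0.08 (SE 0.07) and -0.04 (SE 0.06) and the regulatory PIK3R1 had 0.09 (SE 0.20) and -0.09 (SE 0.14). PIK3R2, a second regulatory subunit, had -0.24 in both muscles (SE 0.12 and 0.10, adjusted p = 0.326 and 0.19). IGFBP2, well above background on 14 of 32 arrays of the ST, had -0.63 (SE 0.26, adjusted p = 0.193) there, while the 3 custom probes tied to IGFBP2 gave -0.20 (mean SE 0.22, highest adjusted p = 0.867). IGFBP1 was well above background on 2 arrays of the LT and 3 of the ST and did not pass the filter on dim probes. Its mean level in the ST was -9.05 in stressed cows and -9.91 in limited stress. Of the 16 stressed cows, 15 exceeded the median of limited stress in the ST. Without the filter it was called in the ST, higher in stressed cows.

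Among the FGF genes, FGF1 had log2 fold changes for stress of 0.07 (SE 0.14) in the LT and -0.05 (SE 0.07) in the ST. The receptor FGFR2 had -0.82 (SE 0.29, adjusted p = 0.137) in the ST and 0.06 (SE 0.22) in the LT. Its probe was well above background on 10 of 16 arrays of limited stress and on 7 of 16 of stressed cows in the ST, where the levels ranged from -8.41 to -5.69 and from -9.77 to -6.11. It was called in the ST without cow258, cow260, cow267 or cow280. The receptor FGFR4, found in muscle precursor cells, had -0.63 in the LT (SE 0.25, adjusted p = 0.203) against -0.46 in the ST (SE 0.29). Its probe was well above background on 17 of 32 arrays of the LT, and it was called there without cow301 (-0.76, adjusted p = 0.0694). MYF5, the tested marker of satellite cells, was not called either, with -0.63 (SE 0.26) in the LT and -0.47 (SE 0.22) in the ST, and its part in the FGFR4 values was not tested.

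Pathway genes outside the member families were read from lists of the same pathways, chosen with earlier results of these data known. Over all tested transcripts, stress called 3.73% in the LT and 3.6% in the ST. Of 17 listed targets of the FOXO factors, 5 were on the array and tested. Of these 5, 2 rose with stress in both muscles, and the activity of the FOXO factors was not tested. PDK4, the kinase that shuts down pyruvate dehydrogenase, rose by 3.39 (SE 0.33) in the LT and 3.36 (SE 0.33) in the ST on the log2 scale. GABARAPL1, a gene of autophagy, rose by 0.93 (SE 0.20) and 0.65 (SE 0.19). Of 9 tested targets of TGF-beta and BMP, 1 was called in the ST, where the median of the list was 0.14. It was ID1, a target of BMP SMADs, which rose in the ST (0.50, SE 0.16, adjusted p = 0.0977) and had 0.12 (SE 0.16) in the LT. Of 11 further genes of the TGF-beta and BMP pathways, 2 rose in the LT, namely THBS1, which activates latent TGF-beta (0.83, SE 0.17), and SMURF2, which marks SMAD proteins for degradation (0.46, SE 0.11), and none was called in the ST. Of the growth hormone axis, STAT5A fell in the ST (-0.38, SE 0.10, adjusted p = 0.0255), 1 of 3 tested, and 0 of 4 were called in the LT. Of 5 further genes of the insulin and mTOR pathway, 0 were called for stress in either muscle.

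The interaction of muscle and stress was called for 0 of 44 members and for 0% of all 4230 transcripts by limma, with 4 members (9.09%) at an unadjusted p under 0.05, beside 1.94% of all transcripts. These were ACVRL1 (0.20), FGFR2 (0.88), SMAD3 (0.35) and ACVR1 (0.44), where a positive value stands for a stress effect higher in the LT than in the ST. The adjusted p of each was 0.999 in limma. This fit did not pair the muscles of a cow. With cow as a replicate block, 0 members and 7 of all transcripts were called, 5 higher and 2 lower. With slide as a block as well, 0 members and 4 of all transcripts were called. Diet and the interaction of stress and diet were called for 0 members and for 0% of all transcripts in both muscles. At an unadjusted p under 0.05, diet gave 1 member in the LT, IGFBP6 (2.27%, beside 2.88% of all transcripts), and 3 in the ST, FGFR2, IGFBP2 and SMAD1 (6.67%, beside 3.74%). The interaction with diet gave 1 member in the LT, INHA (2.27%, beside 1.83%), and 5 in the ST (11.1%, beside 3.49%). FST in the ST was among them. On the control diet its mean level was -2.58 ± 0.29 in limited stress and -3.29 ± 0.33 in stressed cows, and on the EP diet -2.71 ± 0.58 and -2.77 ± 0.49 (SD, n = 8). The interaction was 0.66 (SE 0.30, limma adjusted p = 0.969), and a difference between the diets was not shown. Within the control diet alone, stress called 2 of 45 members in the ST, SMAD9 (-1.11, limma adjusted p = 0.0701) and FST (-0.71, limma adjusted p = 0.0885), both lower, beside 2.57% of all transcripts (0.919% higher and 1.65% lower). Within the EP diet it called 0 members in the ST, beside 0.777% of all transcripts (0.565% higher and 0.212% lower). In the LT it called 0 members on either diet, beside 1.09% of all transcripts on the control diet (0.789% higher and 0.302% lower) and 1.16% on the EP diet (0.835% higher and 0.325% lower).

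Far more members were called between the muscles, with 32 arrays each, than between the stress groups, with 16 arrays each in a muscle. Of 44 members, 24 (54.5%) were called between the LT and the ST, close to the 51.7% of all 4230 transcripts, so that the share called was not particular to these genes. The LT was higher for 7 members (15.9%, against 21.9% of all transcripts) and lower for 17 (38.6%, against 29.9%). Every slide and every scanning day held 1 muscle only, so that the muscle and the slide cannot be told apart array by array. The p-values between the muscles come from a fit without pairing by cow and without slide, unless another is named. With cow as a replicate block, 28 members were called, and 2621 of all transcripts. With slide as a random block, 14 members were called, and 1727 of all transcripts. Scaling by the control features moved the median of all transcripts from -0.03 to 0.15 on the log2 scale and gave 12 called members, 10 higher and 2 lower in the LT. Of all transcripts, 1147 were then higher and 245 lower in the LT, against 925 and 1264. SMAD9 and GHR were the 2 that were lower in the LT under that scaling too, and INHA, TGFB3, GDF1, INHBA, BMP5, TGFBR2 and ACVRL1 were higher in the LT under both scalings.

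**Figure D3:**
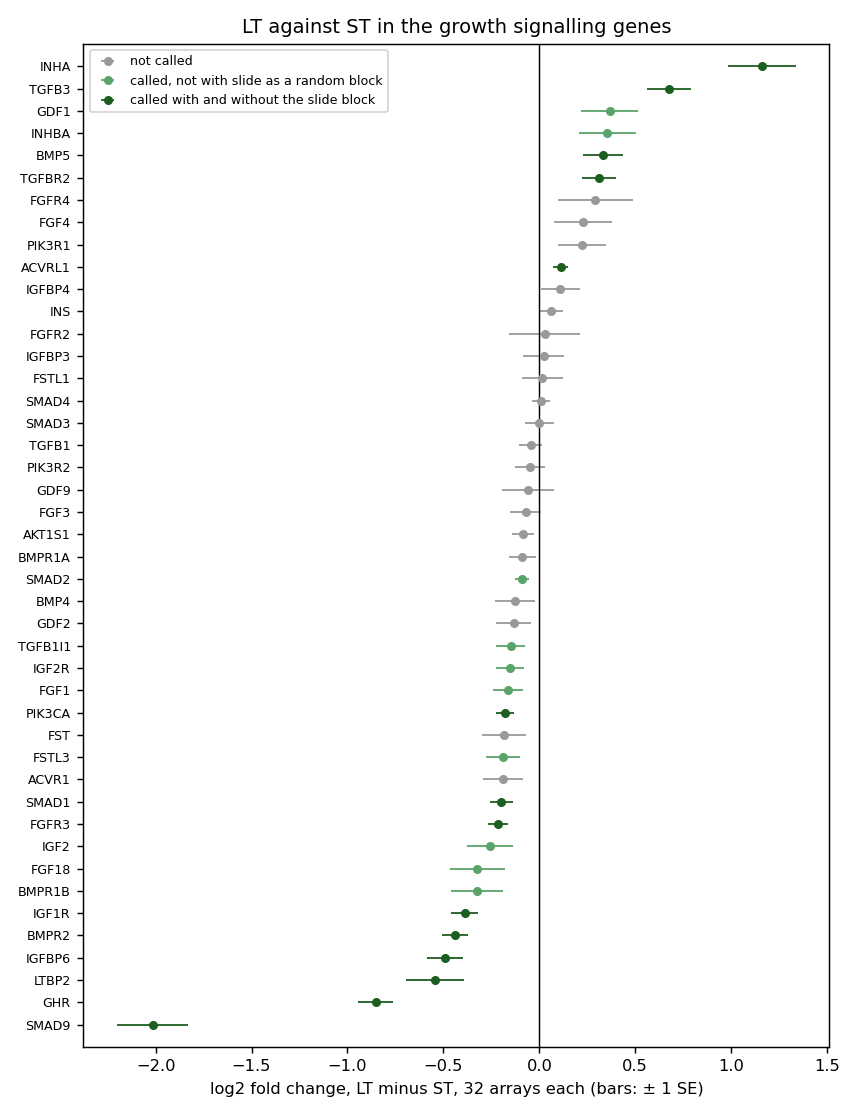
Log2 fold change of the LT against the ST (x axis) for the 44 members tested in both muscles, 32 arrays each, with bars of 1 SE. Dark green marks the 14 members called with and without slide as a random block, light green those called without it alone, and grey those not called. SMAD9 at -2.01 and INHA at 1.16 lie at the ends.

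SMAD9 had a log2 difference between the muscles that exceeded those of the other tested members when arrays were scaled by the 75th percentile, but with normexp background correction, where it was -0.64, INHA (0.92) and GHR (-0.72) exceeded it. Its level ranged from -8.80 to -5.30 (median -6.94) in the LT and from -7.13 to -3.56 (median -4.87) in the ST, and it was lower in the LT of 32 of 32 cows. The log2 fold change was -2.01 (SE 0.18, adjusted p = 7.37e-14), so that the signal of the LT was 24.8% of that of the ST. It was called under both, and the SMAD9 probe was well above background on 24 of the 32 LT arrays. SMAD1 was also lower in the LT, by far less (-0.20, SE 0.06, adjusted p = 0.00334). The type II receptor BMPR2 was lower in the LT (-0.44, SE 0.07) in 27 of 31 cows, and BMPR1B, a type I receptor, was lower (-0.32, SE 0.13) but was not called with slide as a random block. BMP5 (0.33, SE 0.11) and the type I receptor ACVRL1 (0.11, SE 0.04), known from blood vessels, were higher in the LT. BMP4 (-0.13, SE 0.11) and BMPR1A (-0.09, SE 0.07) were not called. SMAD1, BMPR2 and BMPR1B lost their calls when arrays were scaled by the control features.

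GHR, through which growth hormone acts on muscle, was lower in the LT of all 32 cows. Its level ranged from -2.89 to -1.02 in the LT, with a mean of -1.95 ± 0.37, and from -2.29 to -0.48 in the ST, with a mean of -1.10 ± 0.40 (SD, n = 32). The log2 fold change was -0.85 (SE 0.09, adjusted p = 2.26e-11), and the signal of the LT was 55.4% of that of the ST. IGF1R ranged from -5.84 to -5.00 in the LT and from -5.70 to -4.22 in the ST, and was lower in the LT (-0.39, SE 0.07, adjusted p = 5.64e-06) in 28 of 31 cows. IGFBP6, which prefers IGF2 as its ligand, was lower in the LT (-0.49, SE 0.09) in 28 of 32 cows, and IGF2 (-0.26, SE 0.12, adjusted p = 0.0679) and IGF2R (-0.15, SE 0.07, adjusted p = 0.0745) were lower by less, and neither was called with slide as a random block. IGF2 had 2 named probes on the array, and it was not called without the filter on dim probes. IGF2R turned to 0.04 and lost its call when arrays were scaled by the control features. IGF1R, IGFBP6, IGF2 and PIK3CA also lost their calls under that scaling, while GHR kept its call. PIK3CA was lower in the LT (-0.18, SE 0.05), and PIK3R1 had 0.22 (SE 0.13, adjusted p = 0.139), called with cow as a block (adjusted p = 0.0661). IGFBP3 (0.02, SE 0.11) and IGFBP4 (0.11, SE 0.10) were not called.

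Among the TGF-beta and activin genes, several ligands and a receptor were higher in the LT. INHA, the alpha subunit of inhibin, ranged from -4.17 to 0.08 (median -2.57) in the LT and from -4.70 to -2.15 (median -3.75) in the ST, and was higher in the LT of 29 of 32 cows. Its log2 fold change was 1.16 (SE 0.18, adjusted p = 1.78e-07). TGFB3 ranged from -5.68 to -3.61 (median -4.84) in the LT and from -6.30 to -4.15 (median -5.53) in the ST, and was higher in the LT of 29 of 32 cows as well (0.67, mean SE 0.11 over 2 probes, highest adjusted p = 8.88e-05). TGFBR2 (0.31, SE 0.09) was higher in 24 of 32 cows, INHBA (0.36, SE 0.15) in 21 and GDF1 (0.37, SE 0.15) in 23. INHBA and GDF1 were not called with slide as a random block. LTBP2, a matrix protein of the latent TGF-beta binding family, was lower in the LT (-0.54, SE 0.15). SMAD2 was lower in the LT (-0.09, SE 0.04, adjusted p = 0.0377) and turned to 0.10 without a call under the control features. SMAD3 (0.00, SE 0.08), SMAD4 (0.01, SE 0.05), TGFB1 (-0.04, SE 0.06) and FST (-0.19, SE 0.12) were not called. FGF1 was lower in the LT (-0.16, SE 0.08, adjusted p = 0.0773), and turned to 0.02 without a call under the control features. The receptor FGFR3 was lower in the LT (-0.22, SE 0.05, adjusted p = 3.64e-04), with 6 of 31 cows higher in the LT, and was also called with slide as a random block. FGF18 (-0.32, SE 0.14), the follistatin relative FSTL3 (-0.19, SE 0.09) and TGFB1I1 (-0.15, SE 0.07), named for its induction by TGFB1, were lower in the LT as well. These 3 genes, FGF1 and SMAD2 were not called with slide as a random block. LTBP2, FGFR3, FGF18, FSTL3 and TGFB1I1 also lost their calls under the control features.

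**Figure D4:**
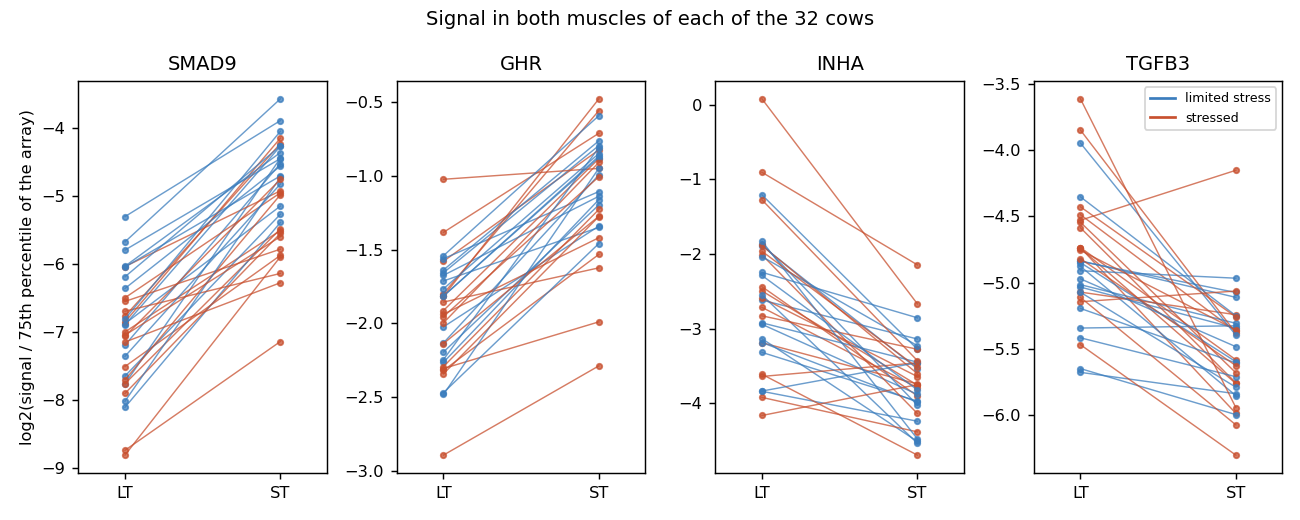
Level of SMAD9, GHR, INHA and TGFB3 (y axis, log2 of signal over the 75th percentile of the array, one scale per gene) in the LT and the ST of each cow, joined by a line, blue for limited stress and red for stressed cows. The lines of SMAD9 and GHR rise from the LT to the ST in 32 of 32 cows, and those of INHA and TGFB3 fall in 29 of 32.

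The unnamed custom probes gave a second reading of part of these genes. A custom set was tied to a member when it had a run of 25 or more bases in common with the named probes of that gene alone, and a set holds up to 5 tested probes laid along the same transcript. Such sets could be compared for 16 members between the muscles. GHR had -0.79 by its custom set and -0.85 by its named probe, INHA had 0.69 and 1.16, TGFB3 had 0.61 and 0.67, TGFBR2 had 0.30 and 0.31, and IGFBP6 had -0.36 and -0.49, and the custom sets of these 5 genes were called in the same direction. The sets of FGFR3 (-0.22, highest adjusted p = 0.188) and IGF2R (-0.19, highest adjusted p = 0.155) were not called, although the named probes of both genes were. The sign was the same for 14 of 19 sets between the muscles and for 17 of 21 in the stress effect in the ST. The median distance between the log2 fold changes of a set and its gene was 0.07 between the muscles and 0.05 for stress in the ST, and the largest was 0.47, for INHA, and 0.44, for IGFBP2. The sets are read on the same arrays from the same RNA and are no further replicates.

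**Figure D5:**
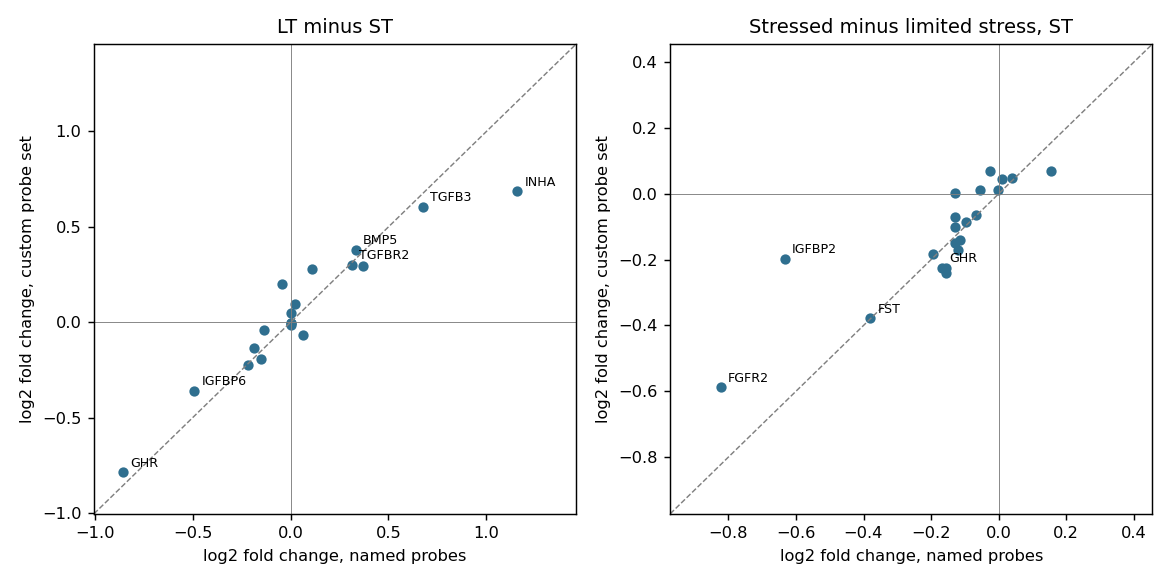
Log2 fold change of the custom probe set (y axis) against that of the named probes of the same gene (x axis), for the LT against the ST (left, 19 sets) and for stress in the ST (right, 21 sets). The dashed line marks equal values. GHR, INHA, TGFB3 and IGFBP6 keep their direction, and INHA, at 0.69 against 1.16, lies farthest from the line between the muscles.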

How the data were processed

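The authors read single-colour Agilent arrays with Feature Extraction. The deposited intensities had, per the file headers, background subtraction, detrending and surrogate values near background, and the deposited value table held the same intensities without scaling or logarithm. Spots set aside as outliers were dropped. Signals were divided by the 75th percentile of the non-control spots, and log2 values of a probe were averaged. The methods scale by the median of control probes, and count more of these than the files mark. The files marked 536 control features, whose median lay near background (1.73 to 6.36 units over the arrays). Whether these are the control probes of the methods is not known. Scaling by them, the alternative given here, may thus differ from the scaling of the authors. Tested probes exceeded the background clearly on 11 or more of the 32 arrays of a muscle. The tests used limma 3.58.1 with statmod 1.5.0 in R 4.3.3. The fit held 4 groups per muscle, or 8 groups over both muscles, and two-sided p-values had a Benjamini-Hochberg adjustment over all probes. For a gene of several probes the mean log2 fold change and the highest adjusted p are given. The period term of the methods is not in the labels and was left out. The script was tested on simulated data.

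Both muscles of an animal carry the same cow number in the labels. Deviations from the group means correlated between the muscles of every cow, from 0.10 to 0.76 (median 0.43). The members and lists were chosen with earlier results of these data known. Text names the members called for stress, diet or an interaction, those next to the threshold, the 10 with the largest muscle difference, and a list of central pathway genes, of 43 names, where tested. Other members were named after their values were seen. RefSeq (ARS-UCD2.0) held 43 of the 65 probe accessions, each with the name of the files. The number of arrays limits the precision. One gene of the list of TGF-beta and BMP targets is not reported here.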

Additional observations from a re-analysis of the deposited data

Results flagged for a closer look

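In the groups of 8 arrays formed by muscle, stress and diet, the highest or lowest array of a group stood apart from the others in 13 of 208 groups of the 26 members examined, and chance alone gives about 1 in 20. The share of the group's range taken by the gap to the nearest array is given for each. In stressed LT on the EP diet, BMP4 was highest in cow258, at -3.54 against -4.93 for the next array (0.527). In stressed ST on the EP diet, FGFR2 was highest in the same cow258 (0.562) and LTBP2 was highest in cow299 (0.588). In stressed ST on the control diet, TGFB3 was highest in cow260 (0.571). In stressed LT on the control diet, GHR was lowest in cow321 (0.536), IGFBP4 was lowest (0.659) and PIK3R1 highest (0.572) in cow297, and IGFBP6 was highest (0.659) and SMAD2 lowest (0.692) in cow265. In limited stress LT on the EP diet, IGFBP3 was highest in cow314 (0.532), and IGFBP6 (0.539) and INHBA (0.571) were lowest in cow304. In limited stress ST on the control diet, FGFR4 was highest in cow270 (0.581).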

How the results depend on the processing

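Stress called 1 member in the ST and 0 in the LT under the other scalings, filters, thresholds and blocks tried, with these exceptions. Without the filter on dim probes the ST gave 2, SMAD9, lower in stressed cows, and the dim IGFBP1, higher in them. With the 75th percentile taken without outlying spots, an alternative chosen after seeing the data, the ST also gave 2, SMAD9 and BMP4. With each cow left out in turn, also chosen after seeing the data, 0 to 1 members were called in the LT and 1 to 3 in the ST. Between the muscles, 12 members were called with scaling by the control features and 14 with slide as a random block, against 24, and 18 to 28 otherwise. Scaling by the control features turned FGF1 to 0.0242, IGF2R to 0.0355 and SMAD2 to 0.0972. Over all transcripts, stress calls in the ST were 153, and 38 by the control features, 98 by normexp, 71 with scan day, 52 with slide as a block and 90 at an adjusted p under 0.05. In the LT they were 161, and 35 by the control features and 242 with cow as a replicate block. The pairing by cow as a replicate block gave 28 members between the muscles, with ACVR1, AKT1S1, GDF2 and PIK3R1 added, and 1 for stress in the ST and 0 in the LT. No member was called for diet or for an interaction under any alternative. The cause of these shifts was not tested. Dim probes, among them SMAD9 in the LT, FGFR2 and FGFR4, are the least certain.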
